A study of Macaca mulatta with 27 samples.

Results

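The genes of cholesterol and fatty acid synthesis were followed in rhesus macaque pluripotent stem cells before and after conversion to 7 naive-type culture protocols. The set was chosen by name: 27 enzymes and regulators were listed, and 26 of them were among the 17967 genes of the deposited count tables. CYP51A1 was not found under that symbol and was not analysed here. ACAT2, which makes acetoacetyl-CoA at the entry of the mevalonate route, was listed at 0 in all 27 libraries. The other 25 genes passed the filter on low counts and were tested in every comparison.

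All cells belonged to LyonES-tGFP-(S3), 1 clone of an embryo-derived rhesus line that carries a tauGFP transgene driven by the CAG promoter and STAT3-ERT2, a STAT3 that tamoxifen switches on. The primed state, the flat-colony state in which primate stem cells are usually grown, was covered by 6 libraries. Each converted cell type, named after its protocol (TL2i, TL-CDK8i, t2iLGöY, 4i/L/b, E-NHSM, LCDM (EPS) or NHSM-v), was covered by 3 libraries. TL2i cells received tamoxifen, LIF and inhibitors of MEK and GSK3β, and in TL-CDK8i cells the CDK8/19 inhibitor CNIO-47799 stood in place of both kinase inhibitors. The other 5 protocols were run without tamoxifen although those cells carry the same transgenes, converted cells were passaged as single cells and primed cells as clumps, and the lipid content of each medium is not given in the sources used here. Each difference below is therefore a difference between whole culture conditions of 1 clone.

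Cells build cholesterol from acetyl-CoA. The mevalonate route first makes isoprene units and joins them into farnesyl diphosphate, squalene synthase and squalene epoxidase commit the chain to sterols, and a further series of membrane enzymes trims lanosterol to cholesterol. ACLY supplies acetyl-CoA from citrate. Fatty acids leave the same acetyl-CoA pool through ACACA and FASN and are then desaturated by SCD or lengthened by ELOVL6. Both routes are switched on by the SREBP transcription factors, SREBF2 mainly for sterols and SREBF1 mainly for fatty acids, while INSIG1 holds the SREBP precursors in the endoplasmic reticulum when sterols are plentiful.

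Libraries held 7111886 to 20760914 counted reads, so a count of 3 corresponded to 0.141 to 0.429 CPM (counts scaled to a fixed library total). Levels are given here as CPM after TMM scaling over all 27 libraries, and they compare libraries, not genes, since gene length was not taken out. Fold changes are log2 values ± SE from edgeR's quasi-likelihood test, called at a Benjamini-Hochberg adjusted p under 0.05 over all genes tested and referred to below as the QL test. Every protocol was set against the same 6 primed libraries, so the 7 comparisons share their control. The labels do not say that libraries came from separate cultures, and the p-values may then measure technical spread only.

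The primed libraries carried column letters J and K, 3 of each, whose meaning is not given in the sources used here. The QL test between them called 3 of the 25 genes, each lower in K, beside 1.7% of all genes tested called lower and 2.03% called higher. SREBF1 stood at 53.3, 50.3 and 45.7 CPM in J and at 25.8, 30.5 and 34 CPM in K, a difference of -0.73 ± 0.19 (QL adjusted p = 0.0362). MVD differed by -0.68 ± 0.18 (QL adjusted p = 0.0459) and SC5D by -0.49 ± 0.13 (QL adjusted p = 0.0418). Without any one of J1, J2, K1, K2 or K3 none of the 3 was called, and without J3 the count was 2. Values against J alone and K alone are therefore given beside the results of SREBF1 and SC5D.

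The converted cells also differed from primed cells in cell type markers. The summed level of 10 pluripotency genes was 6533 to 7492 CPM in primed and 7600.0 to 7668 CPM in E-NHSM libraries. It was 2142 to 2889 CPM in TL-CDK8i, 845 to 1029 CPM in TL2i and 546 to 578 CPM in LCDM (EPS) cells, and lower again in 4i/L/b, t2iLGöY and NHSM-v cells, at 162 to 347 CPM. POU5F1, which defines pluripotent cells, stood at 1104 to 1295 CPM in primed libraries and between 0.0722 and 7.69 CPM in NHSM-v, t2iLGöY, LCDM (EPS), 4i/L/b and TL2i libraries. TL-CDK8i libraries held 418 to 605 CPM of it, and NANOG had no count in NHSM-v and t2iLGöY libraries. In bulk RNA, fewer cells of a type and less RNA per cell cannot be told apart, and the part of cell composition in any result below was not tested.

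Compared with primed cells, the lipid synthesis genes were more often called higher than lower in 6 of the 7 protocols. In LCDM (EPS) cells the QL test called 15 of the 25 genes higher and 3 lower, beside 28.2% and 28.9% of all genes tested. In TL2i cells 14 were higher and 3 lower (25.6% and 25.2% of all genes), in 4i/L/b cells 13 and 4 (26.6% and 29%), and in t2iLGöY cells 13 and 2 (27.1% and 27.2%). NHSM-v cells had 9 higher and 4 lower (28% and 30.6%), and E-NHSM cells 7 and 2 (11.1% and 15.1%). TL-CDK8i cells had 5 higher and 6 lower (20% and 24% of the 25 genes), near the 22.3% and 23.8% of all genes. Against the K libraries alone the count of higher genes in E-NHSM cells was 15, and it was 5 against J alone, while in TL-CDK8i cells it was 9 when all 8 groups were fitted together.

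The median log2 difference of the 25 genes was above that of all genes in every protocol. It was 0.51 in t2iLGöY, 0.47 in LCDM (EPS), 0.45 in TL2i, 0.33 in 4i/L/b, 0.26 in E-NHSM, 0.25 in NHSM-v and 0.095 in TL-CDK8i cells. Over all genes tested the median lay between -0.023 in NHSM-v and 0.069 in TL2i cells. The differences were mostly modest: with a further demand of at least 1 on the log2 scale, 2 to 5 genes stayed called as higher and 0 or 1 as lower in each protocol. The heatmap of all 25 genes shows the split between arms described next.

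**Figure D1:**
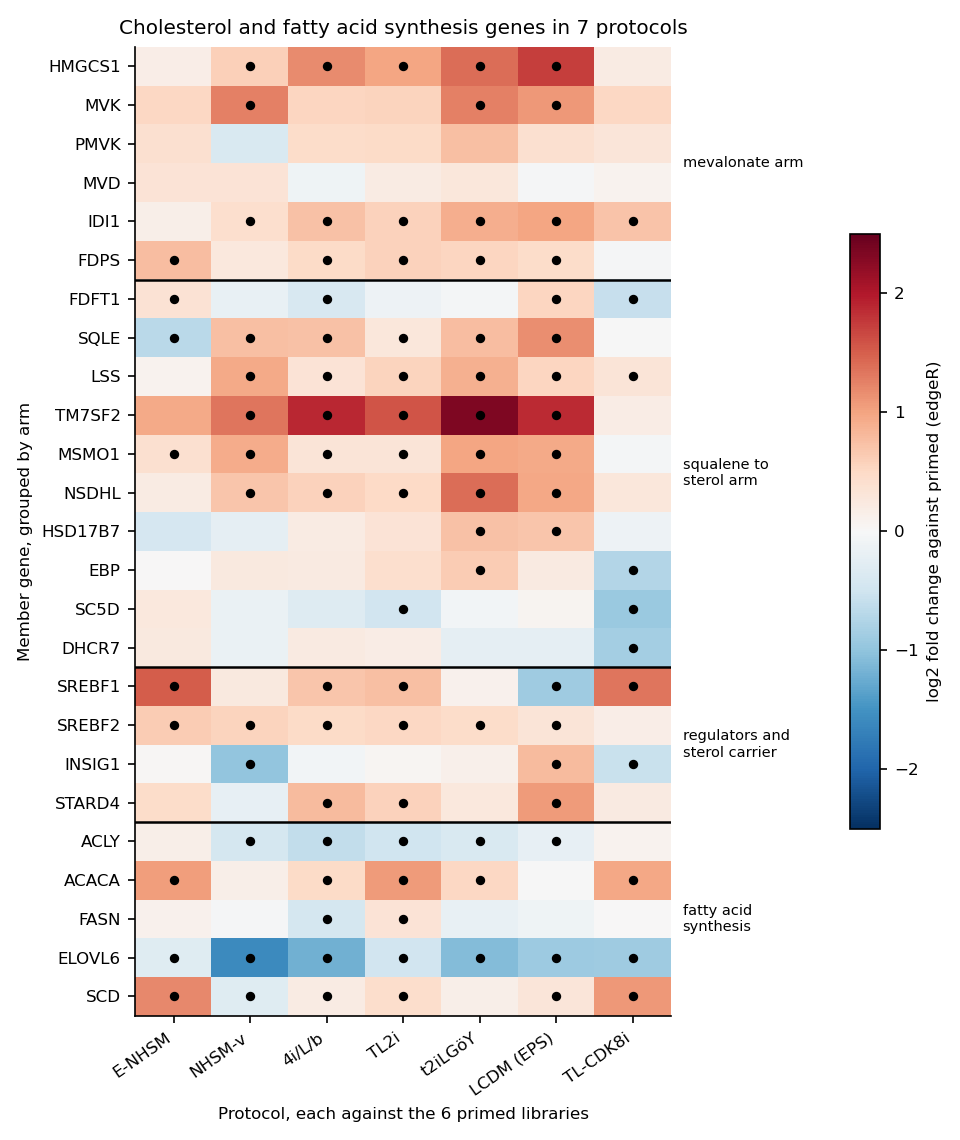
Log2 difference from the 6 primed libraries for the 25 tested genes (rows, grouped by arm) in the 7 protocols (columns), with called values marked. Most of the upper rows, the sterol enzymes, are positive in the 5 protocols from NHSM-v to LCDM (EPS), whereas SREBF1 and SCD are most positive in E-NHSM and TL-CDK8i.

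The mevalonate arm rose or did not pass the test, and none of its 6 tested genes was called lower in any protocol. HMGCS1, which condenses acetoacetyl-CoA into HMG-CoA, had the largest estimate of this arm in LCDM (EPS), t2iLGöY, 4i/L/b and TL2i cells. The lowest, median and highest primed levels were 193, 215 and 234 CPM. LCDM (EPS) libraries held 748, 686 and 692 CPM, t2iLGöY 549, 579.6 and 533 CPM and 4i/L/b 551, 455 and 510.4 CPM. All 9 of these values lay far above the primed range. The differences were 1.72 ± 0.074 (QL adjusted p = 1.84e-10), 1.39 ± 0.08 (QL adjusted p = 1.98e-09) and 1.19 ± 0.084 (QL adjusted p = 5.14e-08). TL2i cells followed at 0.98 ± 0.081 and NHSM-v cells at 0.59 ± 0.081, both called. In E-NHSM (229.9, 249 and 246 CPM) and TL-CDK8i cells (246, 255 and 271 CPM) the libraries lay close to or just above the top of the primed range and the gene was not called (QL adjusted p = 0.189 and 0.0677).

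MVK, mevalonate kinase, was a low gene with 4.0, 9.45 and 12.7 CPM as the lowest, median and highest primed level. It reached 22.7, 20.3 and 23.3 CPM in NHSM-v, 16.7, 19.9 and 27.2 CPM in t2iLGöY and 21.7, 17.2 and 18.5 CPM in LCDM (EPS) cells, all above the primed maximum. These 3 protocols were called, at 1.27 ± 0.30, 1.26 ± 0.32 and 1.08 ± 0.30 (QL adjusted p = 0.00192, 0.0037 and 0.00672). In the other 4 the estimate was close to 0.53, with an SE above 0.3, and was not called. PMVK and MVD, the next kinase and the decarboxylase that follows it, were called in no protocol. Their estimates ran from -0.38 to 0.76 and from -0.10 to 0.35.

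IDI1, the isomerase that makes the second isoprene unit, was one of the 2 sterol-route genes called higher in TL-CDK8i cells. Primed libraries ran from 57.7 to 74.2 CPM with a median of 66.3, and TL-CDK8i libraries held 93.9, 117 and 128 CPM. That was a difference of 0.71 ± 0.12 (QL adjusted p = 0.000231), with no overlap between the groups. LCDM (EPS) and t2iLGöY cells gave 0.99 ± 0.12 and 0.91 ± 0.11, and IDI1 was called higher in all protocols but E-NHSM (0.15 ± 0.12).

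FDPS, which joins the isoprene units into farnesyl diphosphate, had its highest level in E-NHSM cells. The E-NHSM libraries held 146, 140.3 and 153 CPM against a primed range of 72.2 to 95.8 CPM with a median of 86.6. The difference of 0.76 ± 0.11 (QL adjusted p = 3.75e-05) compares with 0.47 to 0.57 in LCDM (EPS), 4i/L/b, t2iLGöY and TL2i cells, all called. NHSM-v and TL-CDK8i cells were not called, and TL-CDK8i libraries (81.7, 91.9 and 87.9 CPM) lay inside the primed range. FDPS, SCD and HSD17B7 have processed or duplicated copies in primate genomes, and reads shared with such copies may have been dropped or split by the counting.

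From squalene to cholesterol, 7 of the 10 measured enzymes were called higher in t2iLGöY cells and 7 in LCDM (EPS) cells, and none lower in either. EBP was among them in t2iLGöY cells only and FDFT1 in LCDM (EPS) cells only. NHSM-v cells had 5 higher and none lower, and 4i/L/b and TL2i cells 5 higher and 1 lower. E-NHSM cells had 2 higher and 1 lower. TL-CDK8i cells showed the opposite balance, with 1 higher and 4 lower, of which the EBP call was lost against K alone. The shares of all genes called higher and lower were 27.1% and 27.2% in t2iLGöY and 28.2% and 28.9% in LCDM (EPS) cells. They were 28% and 30.6% in NHSM-v, 26.6% and 29% in 4i/L/b and 25.6% and 25.2% in TL2i cells. In TL-CDK8i cells they were 22.3% and 23.8%. The E-NHSM counts were near the shares there, 11.1% and 15.1%.

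SQLE, squalene epoxidase, an oxygen-using control step of sterol synthesis, moved in both directions. Its lowest, median and highest primed levels were 108, 116 and 128 CPM. LCDM (EPS) libraries held 255, 270.4 and 262 CPM and E-NHSM libraries 64.7, 79.8 and 77.7 CPM. The first group lay wholly above and the second wholly below the primed range. SQLE was 1.16 ± 0.079 in LCDM (EPS) cells (QL adjusted p = 2.21e-08) and -0.68 ± 0.11 in E-NHSM cells (QL adjusted p = 0.000139), the only sterol-route enzyme called lower there. The t2iLGöY, NHSM-v and 4i/L/b cells gave 0.76, 0.74 and 0.72 and TL2i cells 0.28, all called. The TL2i call was lost without TL2i replicate 2 (QL adjusted p = 0.0682). TL-CDK8i libraries (107, 129 and 128 CPM) surrounded the primed range and gave -0.0065 ± 0.10.

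**Figure D2:**
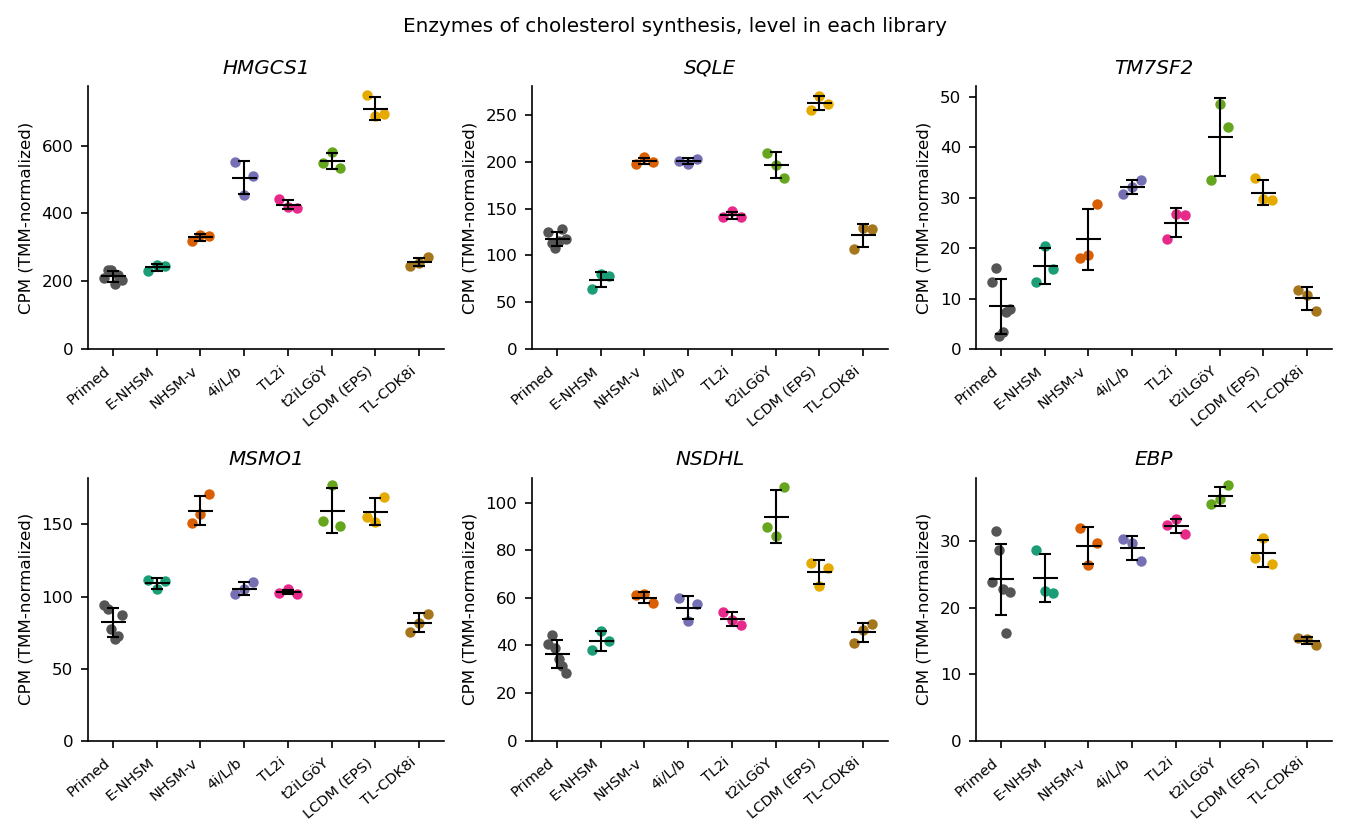
CPM of 6 cholesterol enzymes (HMGCS1, SQLE, TM7SF2, MSMO1, NSDHL and EBP) in each of the 27 libraries, 1 panel per gene, with points for libraries and bars for the group mean and SD. HMGCS1 and SQLE peak in LCDM (EPS), TM7SF2, NSDHL and EBP in t2iLGöY, and EBP is lowest in TL-CDK8i, where all 3 libraries lie below the 6 primed ones.

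TM7SF2, a sterol C14 reductase, showed the largest rise of any of the 25 genes in 5 protocols, and its primed libraries also spread widely. Primed libraries ran from 2.71 to 16.2 CPM with a median of 7.65. The t2iLGöY libraries held 33.6, 48.6 and 44.1 CPM and the 4i/L/b libraries 30.8, 32.1 and 33.5 CPM, above every primed value. The differences were 2.34 ± 0.42 (QL adjusted p = 0.00024) and 1.88 ± 0.42 (QL adjusted p = 0.00184). LCDM (EPS), TL2i and NHSM-v cells gave 1.87, 1.56 and 1.34, all called. Against the J libraries alone, the calls in TL2i (log2 difference 1.21, QL adjusted p = 0.0603) and NHSM-v cells (1.03, QL adjusted p = 0.0967) were lost, the second also without NHSM-v replicate 3 (QL adjusted p = 0.109). In TL-CDK8i cells TM7SF2 stayed at 11.8, 10.8 and 7.54 CPM, inside the primed range.

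LSS, which closes squalene epoxide into lanosterol, was called higher in every protocol except E-NHSM. The primed lowest, median and highest were 52.9, 67.1 and 72.5 CPM, and NHSM-v libraries held 125, 128 and 133 CPM, a difference of 0.95 ± 0.11 (QL adjusted p = 3.94e-06). In TL-CDK8i cells LSS was higher by 0.32 ± 0.12 (QL adjusted p = 0.0364), the only enzyme of this arm to rise there. That call was lost against the K libraries alone (QL adjusted p = 0.056) and without J2 or any 1 TL-CDK8i library (QL adjusted p up to 0.103). The call in 4i/L/b cells (0.33 ± 0.11) was lost without any 1 4i/L/b library (QL adjusted p up to 0.0791).

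MSMO1 and NSDHL, which work in turn to remove the C4 methyl groups, rose together in NHSM-v, t2iLGöY and LCDM (EPS) cells. MSMO1 had a primed lowest, median and highest of 70.5, 82.2 and 94.4 CPM and 152, 177 and 149 CPM in t2iLGöY libraries, a difference of 0.98 ± 0.12 (QL adjusted p = 4.93e-06). NHSM-v and LCDM (EPS) cells gave 0.94 and 0.95. Values near 0.3 to 0.4 in E-NHSM, 4i/L/b and TL2i cells were also called, and each of these 3 calls was lost against J alone. The E-NHSM call was also lost without E-NHSM replicate 1 or E-NHSM replicate 3 (QL adjusted p up to 0.0683), the 4i/L/b call without 4i/L/b replicate 2 or 4i/L/b replicate 3 (QL adjusted p up to 0.104) and the TL2i call without K2 or any 1 TL2i library (QL adjusted p up to 0.0879). NSDHL had a primed lowest, median and highest of 28.5, 36.8 and 44.2 CPM and 89.6, 85.9 and 107 CPM in t2iLGöY libraries, a difference of 1.40 ± 0.15 (QL adjusted p = 2.13e-06). It was also called in LCDM (EPS), NHSM-v, 4i/L/b and TL2i cells, at 0.96, 0.70, 0.58 and 0.49, and the TL2i call was lost against J alone (QL adjusted p = 0.0711) and without TL2i replicate 1 or TL2i replicate 2 (QL adjusted p up to 0.0684). HSD17B7, the reductase that completes C4 demethylation, was called only in t2iLGöY (0.74 ± 0.26) and LCDM (EPS) cells (0.69 ± 0.25), where 1 LCDM (EPS) library (18.6 CPM) and 1 t2iLGöY library (20.1 CPM) fell short of the primed maximum of 20.2 CPM. The first call was lost without K3, t2iLGöY replicate 1 or t2iLGöY replicate 2 (QL adjusted p up to 0.135) and the second without LCDM (EPS) replicate 2 or LCDM (EPS) replicate 3 (QL adjusted p up to 0.115).

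The last steps did not follow the earlier ones. EBP, the sterol isomerase, SC5D, the C5 desaturase, and DHCR7, which reduces 7-dehydrocholesterol to cholesterol, were called lower in TL-CDK8i cells and were seldom called elsewhere. EBP had a primed lowest, median and highest of 16.2, 23.4 and 31.5 CPM and 15.5, 15.3 and 14.4 CPM in TL-CDK8i libraries, a difference of -0.74 ± 0.22 (QL adjusted p = 0.0141, and 0.0614 against K alone), a call also lost without TL-CDK8i replicate 3 (QL adjusted p = 0.0691). DHCR7 had 34.7, 45 and 62.3 CPM in primed and 27.9, 24.3 and 27.7 CPM in TL-CDK8i libraries, -0.86 ± 0.19 (QL adjusted p = 0.00171). Both sets of TL-CDK8i values lay below all 6 primed libraries.

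SC5D gave the largest drop from primed cells of any sterol-route enzyme. Primed libraries had a lowest, median and highest of 122, 169.7 and 236 CPM, and TL-CDK8i libraries held 96.5, 87.7 and 101 CPM, again with no overlap. The difference was -0.92 ± 0.17 (QL adjusted p = 0.000477), or -1.12 (QL adjusted p = 6.26e-05) against J and -0.66 (QL adjusted p = 0.000688) against K. In TL2i cells SC5D was lower, at -0.48 ± 0.16 (QL adjusted p = 0.024), or -0.69 (QL adjusted p = 0.000891) against J and -0.23 (QL adjusted p = 0.0863) against K, and the call was lost without any 1 TL2i library (QL adjusted p up to 0.0869). EBP rose only in t2iLGöY cells (0.63 ± 0.21), a call lost against J alone (QL adjusted p = 0.115) and without t2iLGöY replicate 3 (QL adjusted p = 0.0619).

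FDFT1, squalene synthase, the enzyme that opens the sterol branch, moved both ways. Its primed lowest, median and highest were 126, 147 and 175 CPM. LCDM (EPS) libraries held 213, 236 and 199 CPM and E-NHSM libraries 193, 189 and 192 CPM, above every primed value. TL-CDK8i libraries held 106, 96.5 and 109 CPM and 4i/L/b libraries 114, 109 and 123 CPM, below every primed value. The 4 differences were 0.54 ± 0.11, 0.36 ± 0.11, -0.57 ± 0.12 and -0.41 ± 0.12 (QL adjusted p = 0.000904, 0.0202, 0.00159 and 0.00821). The rise in E-NHSM cells was lost against J alone (QL adjusted p = 0.0976) and without any 1 E-NHSM library (QL adjusted p up to 0.0705).

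Among the regulators, SREBF2 was called higher in 6 protocols and lower in 0, and SREBF1 higher in 4 and lower in 1. SREBF2 had a primed lowest, median and highest of 371, 397 and 416 CPM. E-NHSM libraries held 629, 594 and 607 CPM and LCDM (EPS) libraries 481, 483 and 511 CPM, and the libraries of all 7 protocols lay above every primed value. The difference ran from 0.63 ± 0.065 in E-NHSM (QL adjusted p = 8.51e-07) down to 0.33 ± 0.062 in LCDM (EPS) cells (QL adjusted p = 0.000469), and TL-CDK8i cells, at 0.16 ± 0.072, were not called (QL adjusted p = 0.0808). The SREBF2 order of protocols was thus not that of HMGCS1, which was highest in LCDM (EPS) cells.

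SREBF1 was highest in E-NHSM and TL-CDK8i cells, the 2 protocols with the fewest sterol-route enzymes called higher. Its primed lowest, median and highest were 25.8, 39.8 and 53.3 CPM. E-NHSM libraries held 114, 121 and 107 CPM and each TL-CDK8i library 104 CPM. LCDM (EPS) libraries held 21.9, 20.2 and 22.2 CPM, below all primed libraries. The difference was 1.51 ± 0.19 in E-NHSM (QL adjusted p = 7.53e-06), 1.34 ± 0.20 in TL-CDK8i (QL adjusted p = 7.01e-05) and -0.89 ± 0.23 in LCDM (EPS) cells (QL adjusted p = 0.00475). Against J and K alone, E-NHSM cells gave 1.19 (QL adjusted p = 4.65e-06) and 1.92 (QL adjusted p = 7.55e-10), and LCDM (EPS) cells -1.19 (QL adjusted p = 0.000135) and -0.49 (QL adjusted p = 0.0248). TL-CDK8i cells gave 1.03 (QL adjusted p = 6.12e-05) and 1.74 (QL adjusted p = 8.01e-07). 4i/L/b and TL2i cells were higher by 0.70 ± 0.21 and 0.74 ± 0.21, at 0.40 (QL adjusted p = 0.0164) and 0.43 (QL adjusted p = 0.0157) against J and 1.12 (QL adjusted p = 1.31e-05) and 1.14 (QL adjusted p = 2.06e-05) against K. These 5 protocols kept their direction and their call against either primed set, and the size of the difference depended on the set. The 4i/L/b call was lost without 4i/L/b replicate 2 (QL adjusted p = 0.0514).

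INSIG1, itself a target of SREBP, and STARD4, a carrier that moves cholesterol between membranes, both peaked in LCDM (EPS) cells. INSIG1 had a primed lowest, median and highest of 19.3, 28.8 and 42.5 CPM. LCDM (EPS) libraries held 49.3, 49.97 and 53.5 CPM and NHSM-v libraries 17.6, 14.2 and 13.8 CPM, wholly above and wholly below the primed range. The differences were 0.79 ± 0.19 (QL adjusted p = 0.00306) and -0.98 ± 0.24 (QL adjusted p = 0.00224). In TL-CDK8i cells INSIG1 was called lower at -0.56 ± 0.22 (QL adjusted p = 0.0456), but that call was lost with DESeq2 (adjusted p = 0.0682), against K alone (log2 difference -0.36, QL adjusted p = 0.133), under upper-quartile scaling and with either other filter on low counts (QL adjusted p = 0.052 to 0.0594) and without J1, J2, K2, K3 or any 1 TL-CDK8i library (QL adjusted p up to 0.147).

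STARD4 had 20.1, 25.5 and 32.5 CPM as its primed lowest, median and highest and 60.3, 47.3 and 55.9 CPM in LCDM (EPS) libraries, 1.06 ± 0.16 (QL adjusted p = 6.19e-05). The 4i/L/b libraries held 54.7, 41.9 and 43.5 CPM, 0.80 ± 0.16 (QL adjusted p = 0.000965), and TL2i cells rose by 0.58 ± 0.16. The libraries of these 3 protocols all lay above the primed range, and STARD4 was not called in the other 4.

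**Figure D3:**
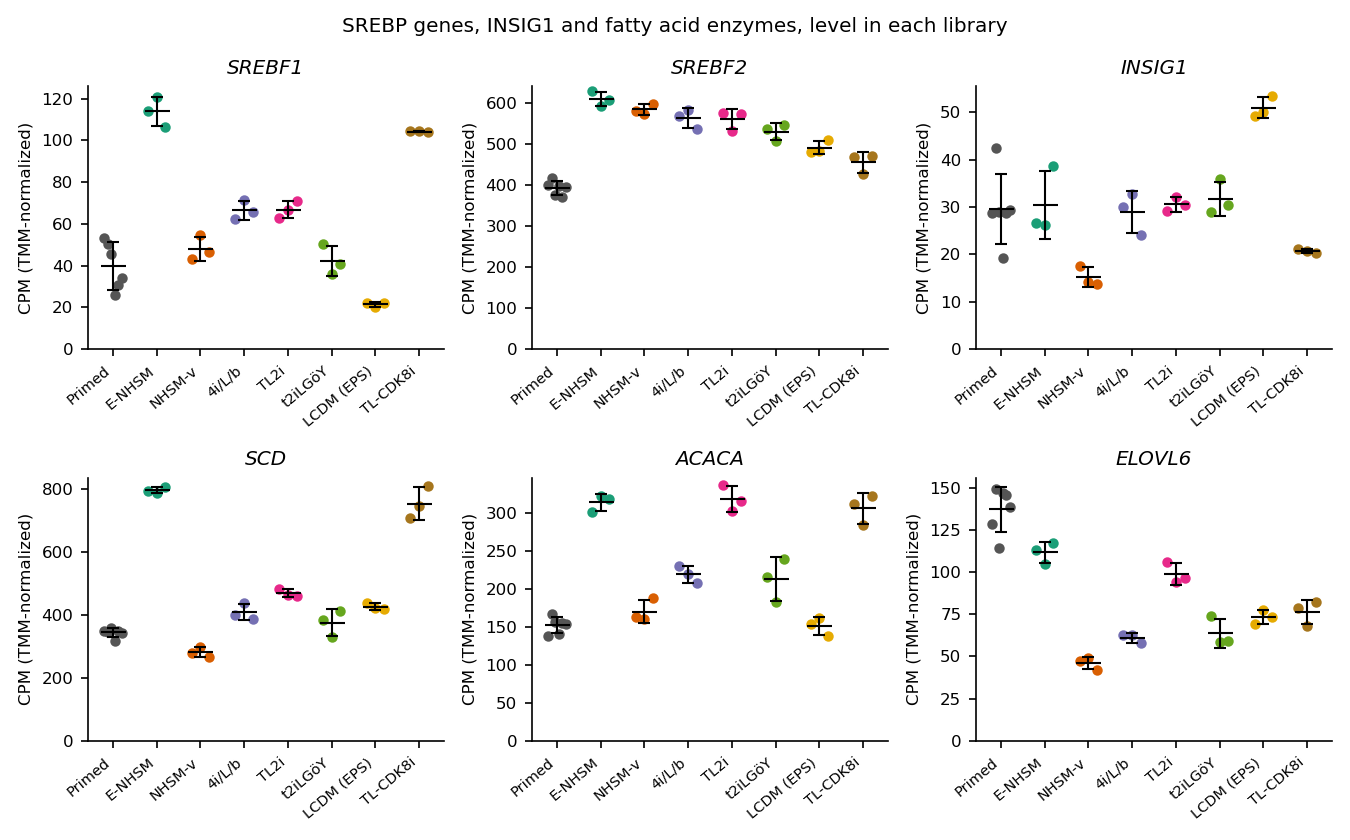
CPM of SREBF1, SREBF2, INSIG1, SCD, ACACA and ELOVL6 in each of the 27 libraries, 1 panel per gene, with points for libraries and bars for the group mean and SD. SREBF1 and SCD are highest in E-NHSM and TL-CDK8i, SREBF2 exceeds every primed library in all 7 protocols, and ELOVL6 is below the primed mean in every protocol, with overlap in E-NHSM.

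Fatty acid genes split by step. SCD, the desaturase that makes monounsaturated fatty acids, and ACACA, the acetyl-CoA carboxylase that makes malonyl-CoA, were mostly higher. ACLY, which frees acetyl-CoA from citrate, and ELOVL6, which lengthens palmitate, were mostly lower. FASN, the fatty acid synthase itself, was called higher in TL2i and lower in 4i/L/b cells and was not called in the other 5 protocols.

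SCD had a primed lowest, median and highest of 317, 347 and 359 CPM, a narrow range. E-NHSM libraries held 793, 787 and 807 CPM and TL-CDK8i libraries 707, 745 and 809 CPM. The differences were 1.21 ± 0.062 (QL adjusted p = 1.76e-10) and 1.08 ± 0.07 (QL adjusted p = 3.02e-08). All 6 of these values were far above both the primed range and the other protocols, whose highest library was at 482 CPM in TL2i. TL2i, LCDM (EPS) and 4i/L/b cells were called higher at 0.45, 0.31 and 0.20, and NHSM-v cells (279, 299 and 267 CPM) were called lower at -0.31 ± 0.075 (QL adjusted p = 0.00215). The 4i/L/b call was lost without 4i/L/b replicate 2 (QL adjusted p = 0.134).

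ACACA had 138, 155 and 167 CPM as its primed lowest, median and highest. TL2i libraries held 337, 303 and 316 CPM, E-NHSM 301, 322 and 319 CPM and TL-CDK8i 312, 284 and 323 CPM. The 3 groups overlapped one another and lay wholly above the primed range. The differences were 1.07 ± 0.082, 1.04 ± 0.084 and 0.96 ± 0.087 (QL adjusted p = 1.52e-07, 4.37e-08 and 7.33e-07). 4i/L/b and t2iLGöY cells rose by 0.49 and 0.51, both called. LCDM (EPS) cells, with the highest HMGCS1, held 154, 161 and 138 CPM of ACACA, with 2 libraries inside the primed range and 1 just below it.

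ELOVL6 was called lower in every protocol, the only one of the 25 genes with 7 calls in 1 direction. Primed libraries had a lowest, median and highest of 114, 142 and 149 CPM, and NHSM-v libraries held 47.1, 49.2 and 41.9 CPM. That was -1.60 ± 0.12 (QL adjusted p = 2.31e-08), beside -1.21 in 4i/L/b, -1.08 in t2iLGöY, -0.90 in LCDM (EPS), -0.90 in TL-CDK8i and -0.48 in TL2i cells. In E-NHSM cells the libraries (113, 105 and 117 CPM) overlapped the primed range, and the difference of -0.30 ± 0.11 (QL adjusted p = 0.0428) was lost under upper-quartile scaling (0.107), without the filter (0.0516), against J alone (0.167) and without J2, K1, K2, K3 or any E-NHSM library (0.191 at most).

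ACLY fell in 5 protocols, by 0.61 in 4i/L/b, 0.49 in TL2i, 0.45 in NHSM-v, 0.38 in t2iLGöY and 0.21 in LCDM (EPS) cells on the log2 scale, and the LCDM (EPS) call was lost without LCDM (EPS) replicate 1 or LCDM (EPS) replicate 3 (QL adjusted p up to 0.105). Its primed lowest, median and highest were 456, 479 and 513 CPM, and the 4i/L/b libraries held 333, 309 and 329 CPM. E-NHSM (549, 530.2 and 526 CPM) and TL-CDK8i libraries (506, 536 and 536 CPM) lay at the top of the primed range or above it and were not called. FASN had 508, 559 and 643 CPM in primed, 698, 661 and 778 CPM in TL2i and 439.7, 429 and 413 CPM in 4i/L/b libraries. The TL2i difference was 0.34 ± 0.085 (QL adjusted p = 0.0046) and the 4i/L/b difference -0.44 ± 0.082 (QL adjusted p = 0.000444).

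Summed over their members, the arms ranked the protocols differently. The mevalonate arm totalled 394 to 475 CPM in primed and 989.8 to 1105 CPM in LCDM (EPS) libraries. The squalene-to-sterol arm totalled 621 to 807 CPM in primed, 1099 to 1119.9 CPM in LCDM (EPS) and 581 to 627 CPM in TL-CDK8i libraries. The 5 fatty acid genes totalled 1599.5 to 1746 CPM in primed, 2336 to 2384 CPM in E-NHSM and 2192 to 2341 CPM in TL-CDK8i libraries. The sums are descriptions that the most abundant genes dominate, HMGCS1 in the first and FASN, ACLY and SCD in the last. They show E-NHSM and TL-CDK8i cells at the top for fatty acid genes and LCDM (EPS) and t2iLGöY cells at the top for the sterol enzymes.

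**Figure D4:**
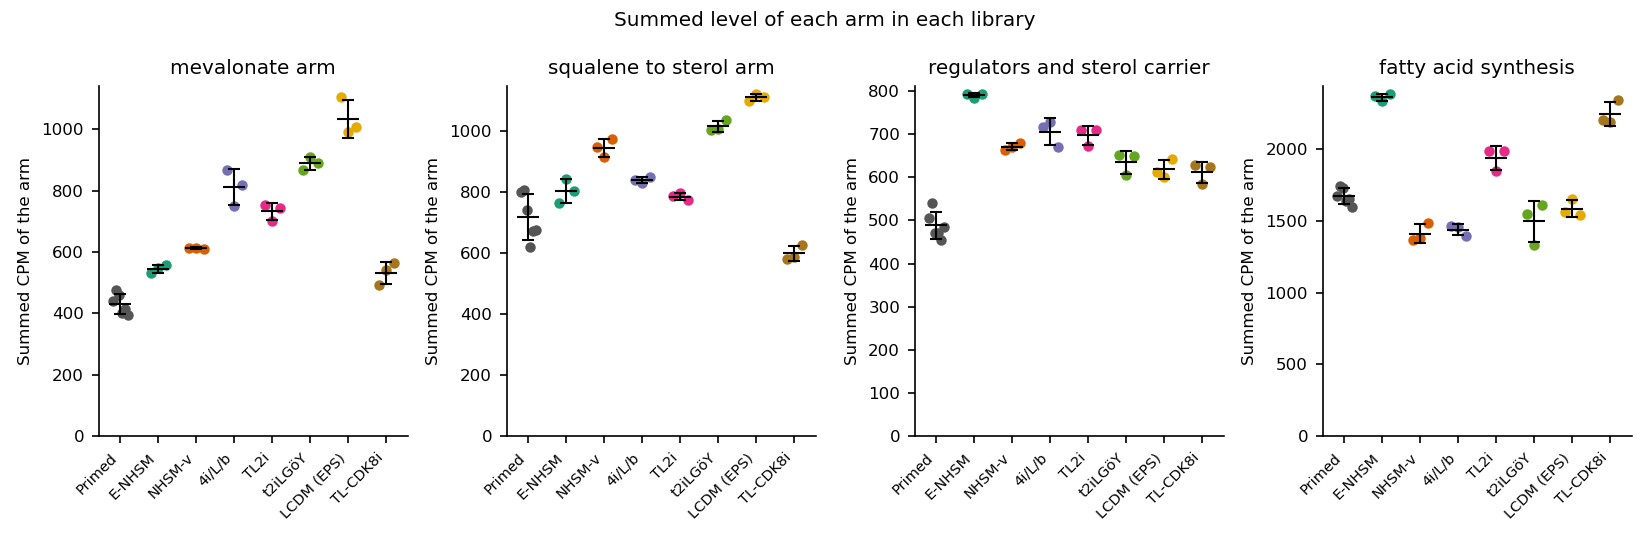
Summed CPM of the mevalonate, squalene-to-sterol, regulator and fatty acid members in each of the 27 libraries, with points for libraries and bars for the group mean and SD. The mevalonate sum is highest in LCDM (EPS) and the fatty acid sum in E-NHSM, with TL-CDK8i next.

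The exchange of the MEK and GSK3β inhibitors for the CDK8/19 inhibitor was compared directly, as tamoxifen was present on both sides. Most cholesterol enzymes were lower in TL-CDK8i than in TL2i cells. Loss of the MEK and GSK3β inhibitors and presence of CNIO-47799 cannot be told apart in this design. The cells also differed in state: POU5F1 was higher by 6.24 ± 0.18 and NANOG by 7.75 ± 0.35 in TL-CDK8i cells. The part of either difference was not tested. The QL test between TL-CDK8i and TL2i cells, which uses no primed library, called 16 of the 25 genes lower and 3 higher, beside 33.3% and 31.5% of all genes tested. The median log2 difference was -0.33 for the 25 genes and -0.04 for all genes. Of the squalene-to-sterol enzymes 9 of 10 were lower, and NSDHL (-0.20 ± 0.10) was the exception.

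The largest drops were those of TM7SF2, EBP and DHCR7. TM7SF2 held 21.8, 26.9 and 26.7 CPM in TL2i and 11.8, 10.8 and 7.54 CPM in TL-CDK8i libraries, -1.36 ± 0.19 (QL adjusted p = 2.21e-05). EBP held 32.4, 33.3 and 31.1 CPM and 15.5, 15.3 and 14.4 CPM, -1.13 ± 0.13 (QL adjusted p = 4.00e-06). DHCR7 held 51.1, 53.4 and 53.8 CPM and 27.9, 24.3 and 27.7 CPM, -1.02 ± 0.11 (QL adjusted p = 2.71e-06). For none of the 3 did the groups overlap. HMGCS1 followed at -0.76 ± 0.085 (QL adjusted p = 3.63e-06), FDPS at -0.59 ± 0.091 and INSIG1 at -0.59 ± 0.12. MVK, PMVK, MVD and IDI1 were not called, with estimates between -0.16 and 0.15.

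The 3 genes that were higher in TL-CDK8i than in TL2i cells were SREBF1 (0.61 ± 0.091, QL adjusted p = 4.88e-05), SCD (0.65 ± 0.088, QL adjusted p = 2.00e-05) and ACLY (0.59 ± 0.087, QL adjusted p = 4.10e-05). SREBF1 held 62.9, 66.8 and 70.8 CPM in TL2i libraries, against 104 CPM in each TL-CDK8i library. SREBF2, in contrast, was lower, at -0.33 ± 0.09 (QL adjusted p = 0.0052). FASN and ELOVL6 were lower too, at -0.32 ± 0.095 and -0.41 ± 0.10, and ACACA did not pass the test (-0.09 ± 0.091, QL adjusted p = 0.397). LSS, at -0.22 ± 0.089 the smallest difference that was called, was lost when the replicate number was added as a block (QL adjusted p = 0.0778), with DESeq2 (adjusted p = 0.0809) and without any 1 TL2i library, TL-CDK8i replicate 2 or TL-CDK8i replicate 3 (QL adjusted p up to 0.19). SQLE was lost without any 1 TL2i library or TL-CDK8i replicate 1 (QL adjusted p up to 0.0897), STARD4 without TL2i replicate 1, TL2i replicate 2 or TL-CDK8i replicate 3 (QL adjusted p up to 0.0812), HSD17B7 without TL2i replicate 2, TL2i replicate 3 or TL-CDK8i replicate 2 (QL adjusted p up to 0.119) and FASN without TL2i replicate 3 (QL adjusted p = 0.0929).

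**Figure D5:**
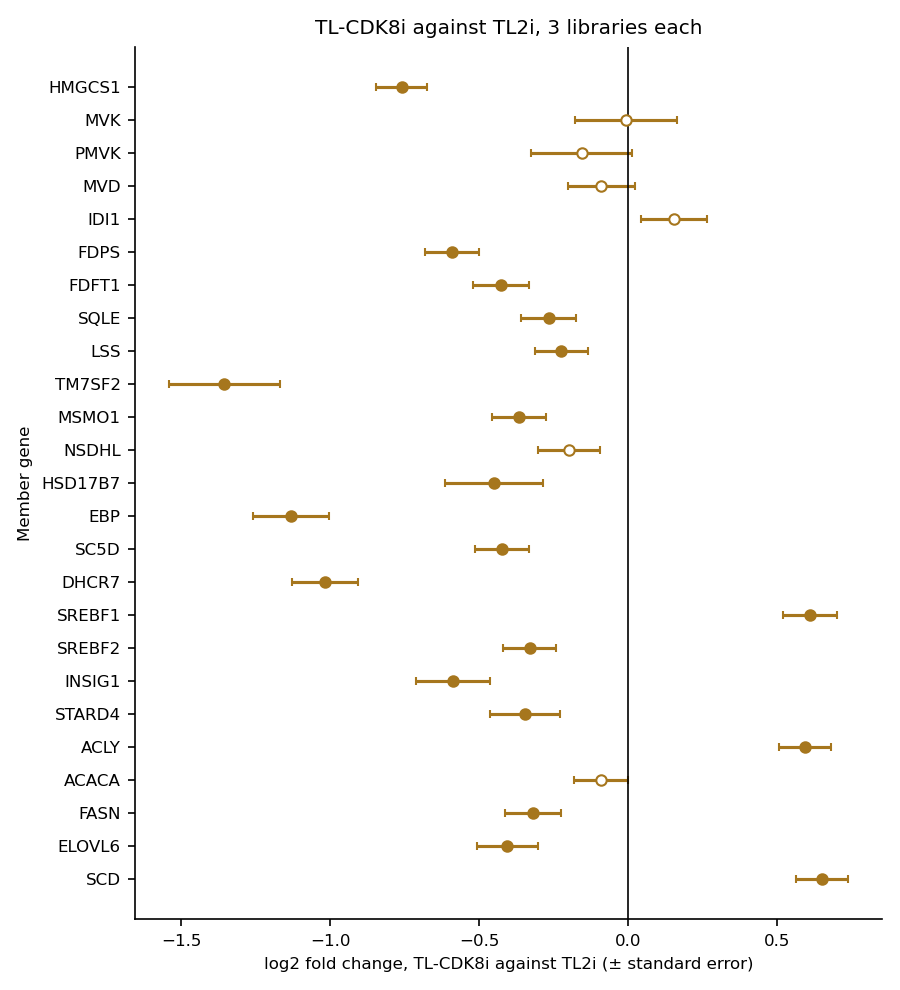
Log2 difference between TL-CDK8i and TL2i cells for the 25 genes, ordered within arms, with bars for ± SE. Negative values are lower in TL-CDK8i cells: 16 genes were called lower, from TM7SF2 at -1.36 to LSS at -0.22, and SREBF1, SCD and ACLY were called higher.

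Among the 7 protocols alone, all 25 genes differed (QL test of any difference, against 90.9% of all genes tested), so a call here says little about these genes in particular. Setting each protocol against the mean of the other 6 placed the extremes. SREBF1 was 1.13 ± 0.077 in E-NHSM, 0.95 ± 0.08 in TL-CDK8i and -1.70 ± 0.10 in LCDM (EPS) cells, the widest range of any member. SQLE was -1.30 ± 0.069 in E-NHSM cells. TM7SF2 was 0.99 ± 0.14 in t2iLGöY and -1.45 ± 0.18 in TL-CDK8i cells. INSIG1 was 0.98 ± 0.11 in LCDM (EPS) and -1.01 ± 0.14 in NHSM-v cells.

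In these contrasts TL-CDK8i cells had 4 genes higher and 13 lower (33.1% and 27.8% of all genes), and LCDM (EPS) cells 11 higher and 5 lower (29.5% and 24.9%). E-NHSM cells had 12 higher and 8 lower (34.6% and 34.2%), NHSM-v cells 6 and 11 (30% and 25.9%), and t2iLGöY cells 10 and 5 (26.6% and 25%). 4i/L/b cells had 6 and 7 (23.7% and 15.7% of all genes) and TL2i cells 6 and 4 (26.2% and 17.5%). Both TL2i counts, the higher count in 4i/L/b cells and the lower count in E-NHSM cells were near these shares. Each of these contrasts shares libraries with the other 6.

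Other genes of the same pathways were counted from 4 further lists. Among 20 genes of the rest of sterol synthesis and SREBP processing, 12 rose and 5 fell in 4i/L/b cells, 10 and 3 in NHSM-v, 10 and 5 in t2iLGöY, 9 and 4 in LCDM (EPS), 7 and 4 in TL2i, 6 and 4 in TL-CDK8i and 2 and 4 in E-NHSM cells. Of all genes tested, 28% were called higher and 30.6% lower in NHSM-v, 28.2% and 28.9% in LCDM (EPS), 26.6% and 29% in 4i/L/b, 27.1% and 27.2% in t2iLGöY, 25.6% and 25.2% in TL2i, 22.3% and 23.8% in TL-CDK8i and 11.1% and 15.1% in E-NHSM cells. The TL-CDK8i and E-NHSM counts were near these shares. SCAP, the escort that carries SREBP to the Golgi, held 20.8 to 35.5 CPM in primed and 181 to 191 CPM in NHSM-v libraries, 2.62 ± 0.14 (QL adjusted p = 6.79e-10). In E-NHSM cells it held 14.7 to 18.7 CPM, below every primed library, and it was 94.5 to 110.4 CPM in LCDM (EPS) and 93.6 to 101 CPM in TL-CDK8i libraries. NFYB, a subunit of the NF-Y factor that works with SREBP at promoters, fell most in NHSM-v cells (-1.48 ± 0.16).

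Of the genes that move and store cholesterol or answer to LXR, 15 or 16 were tested. In LCDM (EPS) cells 1 rose and 7 fell, whereas 5 rose and 1 fell in E-NHSM, 6 and 4 in 4i/L/b, 4 and 2 in TL2i, 4 and 7 in both NHSM-v and t2iLGöY and 4 and 5 in TL-CDK8i cells. Against the shares of all genes, 25.6% to 28% higher in TL2i, t2iLGöY and NHSM-v and 22.3% in TL-CDK8i cells, the 4 rises in each of these protocols were near the background. In LCDM (EPS) cells 28.2% of all genes were higher and 28.9% lower, and in E-NHSM cells 11.1% and 15.1%. In 4i/L/b cells the shares were 26.6% and 29%, and the 4 falls there were near the second. The share of all genes called lower was 30.6% in NHSM-v, 27.2% in t2iLGöY, 25.2% in TL2i and 23.8% in TL-CDK8i cells. APOE, a lipoprotein that carries cholesterol between cells, held 171 to 229 CPM in primed and 7.09 to 14.1 CPM in LCDM (EPS) libraries, -4.19 ± 0.20 (QL adjusted p = 5.00e-10). NR1H3, which encodes LXRα, a sterol-sensing activator of SREBF1, fell there from a primed range of 1.23 to 6.29 CPM to a range of 0 to 0.228 CPM, at most 4 counts per library. It was also called lower in NHSM-v cells (-4.29 ± 1.03), where SREBF1 was not called (0.25 ± 0.22). A link between NR1H3 and SREBF1 was not tested. ABCA2 and ABCG1, both lipid transporters, rose most in TL2i (3.02 ± 0.29) and t2iLGöY cells (5.63 ± 1.30), the second from at most 5 counts in a primed library.

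Among 22 to 24 genes of fatty acid supply, elongation and desaturation, 12 rose and 2 fell in 4i/L/b cells, 11 and 2 in NHSM-v, 9 and 3 in TL-CDK8i, 9 and 5 in TL2i, 7 and 1 in E-NHSM, 7 and 5 in t2iLGöY and 7 and 6 in LCDM (EPS) cells. The LCDM (EPS) counts were near the shares of all genes (28.2% higher and 28.9% lower), as were those in t2iLGöY cells (27.1% and 27.2%). Of all genes, the share higher was 22.3% in TL-CDK8i, 28% in NHSM-v, 11.1% in E-NHSM, 26.6% in 4i/L/b and 25.6% in TL2i cells, and the share lower 23.8%, 30.6%, 15.1%, 29% and 25.2% in that order. While ELOVL6 fell, ELOVL2, which lengthens polyunsaturated fatty acids, rose from a primed range of 1.97 to 5.72 CPM to a range of 87.6 to 110.1 CPM in LCDM (EPS) libraries (4.83 ± 0.26, QL adjusted p = 1.57e-09). ELOVL2 is also in a gene list that the study drew up on these libraries, so it is not independent evidence. SCD5, the second stearoyl-CoA desaturase of primates, rose from at most 1.01 CPM in primed to a range of 9.57 to 17.1 CPM in NHSM-v libraries (5.79 ± 0.96, QL adjusted p = 0.000101), where SCD was lower. ELOVL7, an elongase of saturated chains, was also lower there (-4.75 ± 0.60), and HACD1, a dehydratase of the elongation cycle, fell most in LCDM (EPS) cells, from a primed range of 9.29 to 21.7 CPM to a range of 0.325 to 3.44 CPM (QL adjusted p = 0.000377).

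Of 19 fatty acid oxidation genes, 3 rose and 8 fell in NHSM-v cells, 4 and 7 in 4i/L/b, 2 and 6 in LCDM (EPS), 3 and 5 in TL2i, 2 and 5 in t2iLGöY, 1 and 3 in E-NHSM and 5 and 2 in TL-CDK8i cells. The falls in TL2i, t2iLGöY, LCDM (EPS) and E-NHSM cells were near the shares of all genes called lower there (25.2%, 27.2%, 28.9% and 15.1%). The shares lower were 30.6% in NHSM-v, 29% in 4i/L/b and 23.8% in TL-CDK8i cells. Those called higher were 28% in NHSM-v, 26.6% in 4i/L/b, 28.2% in LCDM (EPS) and 25.6% in TL2i cells. They were 27.1% in t2iLGöY, 11.1% in E-NHSM and 22.3% in TL-CDK8i cells, and the 5 rises in TL-CDK8i cells were near the last. CPT1A, which admits long-chain fatty acids to mitochondria, stood out in this list. It held 0 to 3.04 CPM in primed and 119 to 135 CPM in NHSM-v libraries (6.44 ± 0.51, QL adjusted p = 4.23e-08), and no count in any E-NHSM library, at least 8.67-fold lower than the primed mean at a floor of 3 counts per library, although the primed range itself reached 0. PPARA, a receptor that activates oxidation genes, rose most in TL-CDK8i cells (2.36 ± 0.58), and ACADS, the short-chain dehydrogenase, fell most in LCDM (EPS) cells (-2.35 ± 0.43).

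Several marker sums also differed between primed cells and the protocols. The sum of 10 neural genes was 2342 to 2662 CPM in primed, 4600.4 to 5033 CPM in t2iLGöY and 6876 to 7164 CPM in LCDM (EPS) libraries, the 2 protocols with the most sterol enzymes called higher. It was 1313 to 1468 CPM in E-NHSM and 2096 to 2210.4 CPM in TL-CDK8i libraries, and 2999 to 3468 CPM in TL2i, 4i/L/b and NHSM-v libraries. The 10 fibroblast or mesenchymal genes summed to 1594 to 3259 CPM in primed, 14523 to 17949 CPM in 4i/L/b, 11559 to 14615 CPM in TL-CDK8i and 11737 to 12308 CPM in NHSM-v libraries. They summed to 4821 to 7287 CPM in TL2i and t2iLGöY, 2859 to 3416 CPM in LCDM (EPS) and 663 to 717 CPM in E-NHSM libraries. In LCDM (EPS) cells COL1A1, COL1A2, THY1 and PDGFRB were called lower and DCN, LUM and VIM higher. The sum of 10 cell-cycle genes was 4634 to 5062 CPM in primed and 2213 to 3959 CPM across the 7 protocols, lower in each. The QL test called 10 of 10 neural genes higher in LCDM (EPS) and 9 of 10 in each of t2iLGöY and NHSM-v cells. Beside them, 28.2%, 27.1% and 28% of all genes were called higher in these protocols. SOX1, TUBB3, DCX, STMN2, INSM1, MAP2 and ZIC1 were also called higher in TL2i and 4i/L/b cells, and TUBB3, DCX, STMN2 and ZIC1 in TL-CDK8i cells. The test called 10 of 10 pluripotency genes lower in each of NHSM-v, 4i/L/b, t2iLGöY and TL-CDK8i cells, 9 of 10 in TL2i and LCDM (EPS) and 2 of 10 in E-NHSM cells. The share of all genes called lower was 15.1% in E-NHSM cells, near the pluripotency count there, and 23.8% to 30.6% in the other protocols. The 8 trophoblast genes summed to 3.59 to 14.7 CPM in primed and to 173 to 189 CPM in LCDM (EPS), 150.2 to 236 CPM in TL-CDK8i, 111 to 163 CPM in t2iLGöY and 109 to 112 CPM in TL2i libraries, and to at most 25.6 CPM in the other 3 protocols. These genes did not move as a set. In t2iLGöY and LCDM (EPS) cells TFAP2A rose (5.36 ± 0.34 and 5.77 ± 0.31) while KRT7 fell (-8.13 ± 1.51 and -8.32 ± 1.36). In t2iLGöY cells 5 of the 8 held at most 3 counts in every library. The 9 endoderm or liver-like genes summed to 19.9 to 30.5 CPM in primed, 128 to 174 CPM in t2iLGöY and 81 to 141 CPM in TL2i libraries, and to at most 45.4 CPM in the other 5 protocols. In t2iLGöY cells 6 of these 9 held at most 3 counts in every library. TTR rose there (11.3 ± 0.38), whereas AFP and FOXA2 fell (-9.72 ± 1.76 and -6.21 ± 1.70). The adipocyte or sebocyte genes, which mark cells specialised in lipid synthesis, summed to at most 11.1 CPM in any library, with at least 2 of the 5 measured genes at the floor in every group. The part of these shifts in the lipid gene results was not tested.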

How the data were processed

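RNA of 27 libraries was sequenced as single reads after a directional mRNA library preparation. Per the labels, the submitters' processing notes name bcl2fastq, cutadapt, HISAT2 and HTSeq without versions. The genome build, the annotation and the strand setting are not given in the sources used here, so no coordinates or promoter sequences are given. The authors deposited read counts per gene, unnormalized, in 8 tables. Primed columns name the group but not the sample. In R 4.3.3, counts were scaled by TMM and filtered with filterByExpr, and each protocol was fitted with the 6 primed libraries by the quasi-likelihood test of edgeR 4.0.16, adjusted by Benjamini-Hochberg over all genes tested. The 7 protocols were also fitted together (21 libraries), TL-CDK8i with TL2i and primed K with J. DESeq2 1.42.0 was an alternative. Members and lists were chosen with earlier results of these data known. Genes shown per library were the 4 largest called rises and falls in each protocol, the regulators and the fatty acid genes, and 2 per direction from each further list, apart from withheld items, which are not reported here. Members of other lists at 0 in a group were given a floor of 3 counts. Scripts were tested on simulated data. All 36 pairs of libraries within groups differed beyond counting noise (chi-square per gene 4.06 to 30.8). Across protocols, same-numbered libraries did not deviate together (r from -0.127 to 0.064 in 63 pairs).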

Additional observations from a re-analysis of the deposited data

How the results depend on the processing

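The 119 called differences of named members kept their direction under every alternative run. The demand of at least 1 on the log2 scale removed 93 of them by its own construction, and 22 values were lost under other settings, most against J or K alone. It left, higher and lower, 3 and 0 in E-NHSM, 2 and 1 in NHSM-v, 2 and 1 in 4i/L/b, 2 and 0 in TL2i, 4 and 1 in t2iLGöY, 5 and 0 in LCDM (EPS), 2 and 0 in TL-CDK8i cells, and 0 and 3 between TL-CDK8i and TL2i. Against the other 6 protocols it left 2 in E-NHSM, 1 in NHSM-v, 0 in 4i/L/b, 0 in TL2i, 0 in t2iLGöY, 1 in LCDM (EPS) and 2 in TL-CDK8i cells. The count higher in E-NHSM cells was 15 against K alone, and the count lower was 1 under upper-quartile scaling, without the filter and against J alone. The count higher in TL-CDK8i cells was 9 with all 8 groups in one fit. The cause of these shifts was not tested.

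Without 1 library at a time, 66 of 1014 values lost their call, in 24 results. The counts higher ranged from 5 to 9 in E-NHSM, 9 to 10 in NHSM-v, 9 to 13 in 4i/L/b, 11 to 15 in TL2i, 12 to 14 in t2iLGöY, 14 to 15 in LCDM (EPS) and 4 to 6 in TL-CDK8i cells, and those lower from 1 to 2, 4 to 4, 4 to 5, 2 to 3, 2 to 3, 2 to 3 and 4 to 6. Between all protocols 24 to 25 genes were called, and against the other 6 it was 18 to 21, 13 to 19, 10 to 14, 8 to 11, 12 to 17, 13 to 16 and 16 to 18 in the same order. Between TL-CDK8i and TL2i cells 3 to 4 genes were higher and 12 to 15 lower, and 0 to 2 differed between K and J. No paired analysis was possible against primed cells because the primed columns carry no replicate number of the labels. Between protocols, which share only a number, the replicate block cost 1 call, LSS between TL-CDK8i and TL2i (log2 difference -0.22, QL adjusted p = 0.0778). No median shift with scaling reached 0.1. Against primed cells MVK, PMVK and TM7SF2, all low in counts, carry SEs of 0.298 to 0.491, and of 0.17 to 0.185 between TL-CDK8i and TL2i cells. The part of depth in this was not tested.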
